A study of Odorrana tormota with 4 samples.

Results

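The genes analysed here are those by which neurons make, package, take up again and break down dopamine, noradrenaline and serotonin. They are the synthesis enzymes *TH*, *DDC*, *DBH*, *TPH1* and *TPH2*, the breakdown enzyme *MAOA*, the vesicle transporter *SLC18A2* and the plasma membrane transporters *SLC6A2*, *SLC6A3* and *SLC6A4*. A unigene, that is an assembled transcript, was counted to a gene when the gene symbol of its best Swiss-Prot match was that of the gene, in any case and without a final -a or -b, and unigenes whose best match in the non-redundant protein database (NR) was a chicken or turkey protein were left out. By this rule 9 of the 10 genes were found, with 15 unigenes, among 16911 genes with 31043 unigenes, and 0 unigenes of these genes were left out for a chicken or turkey match. The gene without a unigene was *TPH1*.

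Polyadenylated RNA from the brain of wild adult *Odorrana tormota*, the concave-eared torrent frog, was sequenced in 4 pooled libraries to compare the sexes of a species in which males and females differ in high-frequency hearing. The male pools M1 and M2 each held RNA in equal amounts from 4 frogs, and the female pools F1 and F2 each held RNA in equal amounts from 2 frogs. None of the frogs is described as treated. Male pools held more frogs than female pools, so sex and pool size cannot be told apart, and the spread within a sex is a spread between 2 pools and not between frogs.

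Dopamine, noradrenaline and serotonin are monoamines, made from the amino acids tyrosine and tryptophan by small groups of neurons whose fibres spread widely through the brain. Tyrosine hydroxylase or tryptophan hydroxylase starts the synthesis, a common decarboxylase completes dopamine and serotonin, the vesicle transporter loads them for release, and a transporter for each amine recovers them from outside the cell. In frogs, dopamine cells lie mainly in the forebrain and posterior tubercle, noradrenaline cells in the locus coeruleus of the hindbrain, and serotonin cells in the raphe of the hindbrain and in the hypothalamus. Monoamine oxidase, which breaks the amines down, is carried by many cells besides these neurons.

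Abundance is given as FPKM, fragments scaled to transcript length and to the size of the library, a scale that corrects for the length of each unigene. The FPKM of all unigenes of a gene were summed in each pool. The sum is not corrected for length when a gene is assembled in several partial unigenes, since each adds its full FPKM. Levels are set side by side between genes only with this limit. The number of reads behind a single value was not recovered, and intervals cover only the spread between pools. Among weakly expressed unigenes chosen for values nearly equal to those in F1, the median value in F2, M1 and M2 was 1.03, 1.03 and 1.02 times that in F1. The choice itself holds this median near 1, so it does not settle what 1 fragment was worth in each pool. In whole brain RNA, fewer cells of a type and less RNA per cell cannot be told apart.

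The pools held brain, and they differed in what else they held. FPKM summed to between 669259.9 in F1 and 717477.6 in M1, and 11252 to 12077 genes had at least 1 FPKM. All 10 neuron markers listed were found, with *SNAP25* between 719.5 and 957.7 FPKM, although *ELAVL4* was listed at 0 in both female pools. Pituitary markers (6 of 8 found) summed to 76.3 FPKM in F1 and 6661 in F2 against 1599 in M1 and 1067 in M2, and skeletal muscle markers (5 of 6 found, *TNNC2* not) to 2.97, 375.1, 7.93 and 19.5. Of the hindbrain markers, the 7 *HOX* genes found were all highest in M1, and they summed to 0.966 FPKM in F1 and 3.72 in F2 against 9.94 in M1 and 1.90 in M2.

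Tyrosine hydroxylase, encoded by *TH*, turns tyrosine into L-DOPA and sets the pace of catecholamine synthesis. *TH* had 1.40 FPKM in F1 and 3.23 in F2 against 4.61 in M1 and 2.74 in M2. F1 was the lowest and M1 the highest pool, and F2 lay between the male pools, so the sexes overlapped. On the log2(FPKM + 0.5) scale females were lower than males by -0.61 (SE 0.43, 95% interval -1.75 to 0.52, limma adjusted p = 0.621). The value depended on single pools, with -0.13 without F1, -0.28 without M1, -0.94 without M2 and -1.10 without F2.

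*TH* was the sum of a pair of unigenes of nearly equal length. The main one, comp207655_c0_seq1 (1969 bp, best match tyrosine hydroxylase of *Xenopus laevis*), carried 88.7% of the mean, with 1.35, 2.64, 4.165 and 2.46 FPKM in F1, F2, M1 and M2. The other, comp136083_c0_seq1 (1981 bp, best match a tyrosine 3-monooxygenase-like protein of *X. tropicalis*), had 0.0469, 0.587, 0.447 and 0.279 FPKM. F1 was the lowest pool in both, while the highest pool was M1 in the main unigene and F2 in the other. Many vertebrates outside the placental mammals carry an additional *TH* gene, and whether the weaker unigene comes from it was not tested.

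The decarboxylase encoded by *DDC* makes dopamine from L-DOPA and serotonin from 5-hydroxytryptophan, and so serves all of these neurons. Its unigene (1750 bp, matching the *X. tropicalis* enzyme) had 6.44 FPKM in F1 and 7.40 in F2 against 8.495 in M1 and 6.395 in M2. The pools lay close together, with the highest 1.33 times the lowest, and the sexes overlapped. The difference was -0.09 (SE 0.20, 95% interval -0.61 to 0.43, limma adjusted p = 0.893).

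*DBH* encodes dopamine beta-hydroxylase, which turns dopamine into noradrenaline inside the vesicle. Its unigene (2346 bp) had 0.624 FPKM in F1 and 0.481 in F2 against 1.05 in M1 and 0.925 in M2. Both male pools exceeded both female pools, at 1.79 times the female mean. Too few pools reached 1 FPKM for the gene to enter the main fit. In the fit without a filter on low values its difference was -0.50 (SE 0.21, 95% interval -1.09 to 0.09, limma adjusted p = 0.335).

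*TPH2* encodes the tryptophan hydroxylase of serotonin neurons in the brain. Its unigene (3071 bp, best match the *X. tropicalis* enzyme) had 2.42 FPKM in F1 and 1.07 in F2 against 2.52 in M1 and 1.85 in M2. F2 was the lowest pool, F1 and M1 lay close together, and the sexes overlapped. The difference was -0.31 (SE 0.38, 95% interval -1.31 to 0.68, limma adjusted p = 0.779).

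*TPH1* encodes the tryptophan hydroxylase known in mammals from the gut and the pineal gland, where serotonin is the precursor of melatonin. No unigene carried its symbol. After the values were seen, 2 unigenes with the Swiss-Prot symbol tph of a *X. laevis* protein were found to have tryptophan 5-hydroxylase 1 as their best NR match. They stand outside the rule and enter no count of the 9 genes. The longer one, comp240141_c0_seq3 (2505 bp, best match *Bufo gargarizans*), had 0.203 FPKM in F1 and 9.14 in F2 against 1.89 in M1 and 0.561 in M2. The shorter one, comp348717_c0_seq1, was listed at 0 in 3 pools and had 2.02 FPKM in M2.

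The pools that were high and low for the longer tph unigene differed from those for *TPH2*, which was lowest in F2. The enzymes that make melatonin in the pineal gland were highest in the same pool. *ASMT*, the last enzyme of melatonin synthesis, had 0.319, 16.2, 1.62 and 2.42 FPKM in F1, F2, M1 and M2, and *AANAT*, the enzyme before it, had 0.316, 3.05, 2.39 and 0.767. The 4 found of the 9 pineal and retina markers summed to 6.50 FPKM in F1 and 26.1 in F2 against 8.27 in M1 and 6.57 in M2, and the defining markers *CRX*, *GNAT1*, *ARR3*, *SAG* and *RCVRN* were not found. The sum rested mostly on *ASMT* in F2, and *GNAT2*, the cone transducin, was highest in F1 (5.87, 5.52, 4.14 and 3.38 FPKM). The part of pineal tissue in the tph values was not tested.

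*MAOA* encodes a monoamine oxidase of the outer mitochondrial membrane, which inactivates serotonin, noradrenaline and dopamine. It was the most abundant of the 9 genes, with 17.2 FPKM in F1 and 21.1 in F2 against 15.5 in M1 and 18.0 in M2. F2 was the highest pool and M1 the lowest, and M2 lay above F1. The difference was 0.19 (SE 0.16, 95% interval -0.23 to 0.60, limma adjusted p = 0.685), and it was 0.04 without F2, 0.08 without M1, 0.29 without M2 and 0.33 without F1.

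*MAOA* also had a pair of unigenes, both with a *X. laevis* best match. The main one, comp208587_c0_seq1 (1904 bp), carried 74.5% of the mean with 12.1, 16.2, 11.5 and 13.8 FPKM in F1, F2, M1 and M2. The other, comp239067_c0_seq1 (3315 bp), had 5.13, 4.91, 4.073 and 4.197 FPKM and was higher in both female pools than in both male pools. Its difference was 0.25 (SE 0.17, limma adjusted p = 0.652 over all unigenes). A further unigene of 9789 bp had the symbol *MAO* of a trout protein and belonged to none of the 9 genes, with 7.73, 9.42, 8.90 and 8.43 FPKM.

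*SLC18A2* encodes VMAT2, which loads all of these amines into synaptic vesicles. Its unigene (2396 bp) had 5.67 FPKM in F1 and 4.09 in F2 against 5.97 in M1 and 3.92 in M2. Each sex had a pool near 4 FPKM and a pool near 6 FPKM. The difference was -0.01 (SE 0.28, 95% interval -0.74 to 0.73, limma adjusted p = 0.996). The best NR match of this unigene was a partial protein of the little egret *Egretta garzetta*, which the rule keeps. The highest pool was 1.52 times the lowest, and the origin of the unigene was not tested.

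*SLC6A2* encodes the transporter that recovers noradrenaline. Its unigene, comp180407_c1_seq3 (1959 bp), best matched the L-epinephrine transporter of the bullfrog *Rana catesbeiana*, the frog member of this family known to carry adrenaline. It had 0.647 FPKM in F1 and 0.432 in F2 against 1.49 in M1 and 0.779 in M2. Both male pools exceeded both female pools, at 2.11 times the female mean, and M1 stood well above M2. *SLC6A2* also stayed below the filter, and in the fit without a filter its difference was -0.63 (SE 0.32, 95% interval -1.55 to 0.30, limma adjusted p = 0.426).

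*SLC6A3* encodes the dopamine transporter. It had 2.13 FPKM in F1 and 1.47 in F2 against 2.34 in M1 and 0.547 in M2. M2 was the lowest pool and M1 the highest, so the male pools enclosed the female pools. The difference was 0.40 (SE 0.54, 95% interval -1.02 to 1.82, limma adjusted p = 0.804), the widest interval of the 9 genes. Without M2 it was -0.32.

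The sum for *SLC6A3* rested on a pair of unlike unigenes. The longer, comp220520_c0_seq2 (3159 bp, best match the *X. tropicalis* dopamine transporter), carried 54.8% of the mean with 0.883, 1.18, 1.08 and 0.406 FPKM in F1, F2, M1 and M2. The shorter, comp180407_c0_seq1 (518 bp), had 1.24, 0.286, 1.26 and 0.141 FPKM. It came from the same assembly component as the *SLC6A2* unigene and had the same bullfrog transporter as its best NR match, although its Swiss-Prot match was a rat dopamine transporter. Its reads may thus be shared between these genes, and both sums are uncertain. With this unigene counted to *SLC6A2*, an assignment chosen after seeing the data, *SLC6A2* had 1.89, 0.718, 2.76 and 0.920 FPKM and *SLC6A3* had 0.883, 1.18, 1.08 and 0.406. The sexes then overlapped in both genes, with differences of -0.33 and 0.35, and *SLC6A3* was highest in F2.

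*SLC6A4* encodes the serotonin transporter. It had 2.53 FPKM in F1 and 2.92 in F2 against 4.17 in M1 and 3.42 in M2. Both male pools exceeded both female pools, at 1.39 times the female mean. The difference was -0.41 (SE 0.20, 95% interval -0.95 to 0.13, limma unadjusted p = 0.105, adjusted p = 0.495). It was -0.16 when only the most abundant unigene was used.

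*SLC6A4* was spread over 4 unigenes, and none of them had an amphibian best NR match. The longest, comp199985_c0_seq1 (2741 bp, best match *Alligator sinensis*), carried 29.9% of the mean with 1.07, 0.588, 1.31 and 0.926 FPKM in F1, F2, M1 and M2. The most abundant, comp224761_c1_seq2 (2512 bp, best match the turtle *Chelonia mydas*), carried 51.7% with 1.27, 1.87, 1.90 and 1.69 FPKM. In both of these unigenes the sexes overlapped. Only in comp227997_c0_seq2 (991 bp) did both male pools lie above both female pools, with 0.186, 0.469, 0.623 and 0.799 FPKM. Its best match was a partial protein of the bird *Pterocles gutturalis*, and it stayed below the filter. The shortest, comp224761_c0_seq1 (387 bp), had 0.328 FPKM in M1 and was listed at 0 in the other pools.

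**Figure D1:**
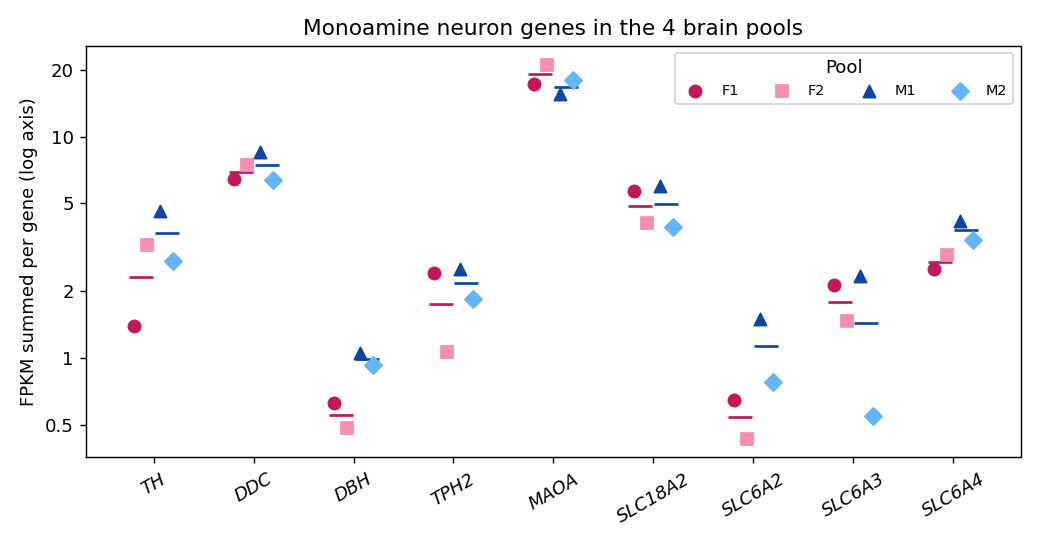
FPKM summed per gene (log axis) for the 9 monoamine neuron genes with a unigene, with 1 point per brain pool and a line at the mean of each sex. *MAOA* and *DDC* sit above all other genes in every pool, and M1 is the highest point in 8 of the 9 genes.

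**Figure D2:**
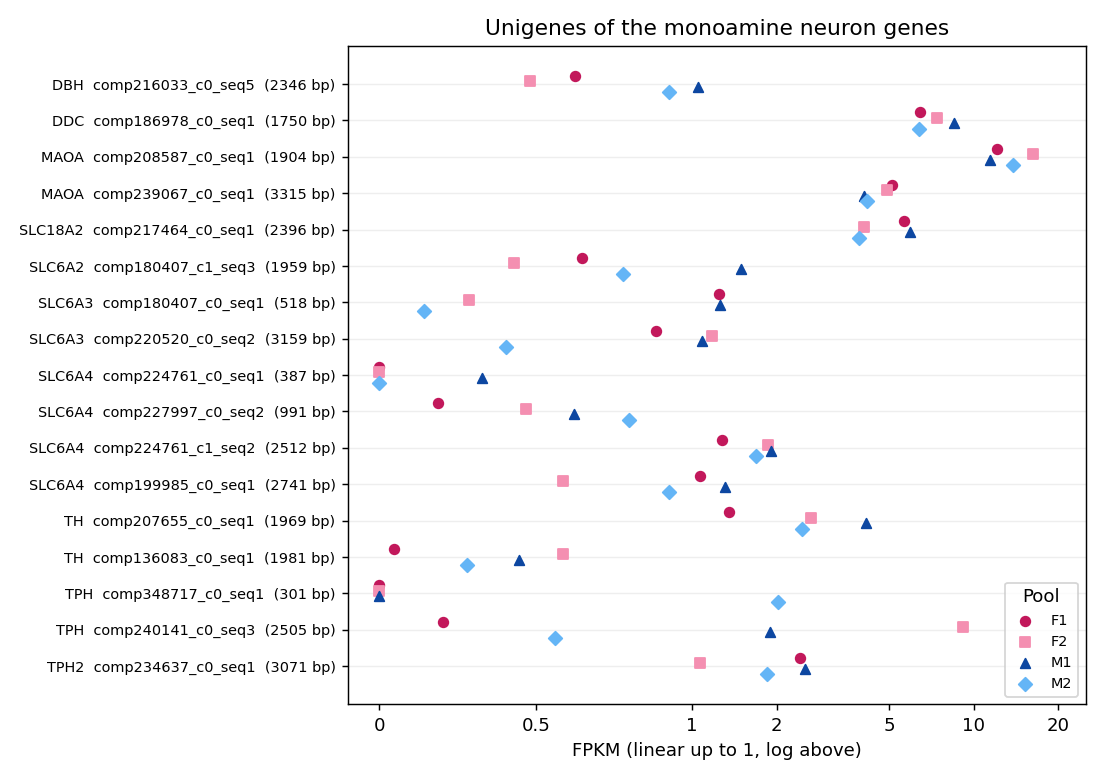
FPKM of each unigene of the monoamine neuron genes in the 4 pools, with its length in bp; the axis is linear up to 1 and logarithmic above. The genes *TH*, *MAOA*, *SLC6A3* and *SLC6A4* are sums of several unigenes, and the longer unigene with the symbol TPH spans from 0.203 FPKM in F1 to 9.14 in F2.

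By mean level over the pools the order was *MAOA* (18.0 FPKM), *DDC* (7.18), *SLC18A2* (4.91), *SLC6A4* (3.26), *TH* (2.99), *TPH2* (1.96), *SLC6A3* (1.62), *SLC6A2* (0.838) and *DBH* (0.770). The ranges of *MAOA* and *DDC* did not overlap each other, and that of *DDC* did not overlap that of *SLC18A2*. From *SLC18A2* downwards each gene overlapped the next in its range over the pools, although *SLC18A2* was above *SLC6A4* within each of the 4 pools. The place of *SLC6A4* rests on a sum of 4 unigenes. Its most abundant unigene had a mean of 1.68 FPKM, below the 2.65 FPKM of the main *TH* unigene. *SLC6A4* and *TH* each led in 2 pools, as did *SLC6A2* and *DBH*, so these neighbours had no order. The places of *SLC6A3* and *SLC6A2* depend on where comp180407_c0_seq1 is counted. Counted to *SLC6A2*, that gene had means of 1.305 FPKM in females and 1.838 in males, above the 1.032 and 0.743 of *SLC6A3*. *SLC6A2* then also led *DBH* in F1, F2 and M1, but not in M2. Among the 11975 genes tested, 74.4% had a lower mean than *MAOA* and 48.1% a lower mean than *DDC*.

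Ratios within a pool show how far the genes of a pathway kept together. *DDC* was 4.61 times *TH* in F1 and 2.295, 1.842 and 2.334 times in F2, M1 and M2. F1, where *TH* was lowest, stood apart, and *SLC18A2* over *TH* behaved likewise, at 4.05 in F1 and 1.27, 1.29 and 1.43 in the other pools. *SLC18A2* over *DDC*, genes that all monoamine neurons use, varied less, with 0.880, 0.552, 0.702 and 0.612 in F1, F2, M1 and M2.

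Within the noradrenaline pathway, *SLC6A2* over *DBH* was 1.04, 0.897, 1.42 and 0.842 in F1, F2, M1 and M2. Within the serotonin pathway, *SLC6A4* over *TPH2* was 1.04 in F1 and 2.74 in F2 against 1.66 in M1 and 1.85 in M2. F2, where *TPH2* was lowest, had the highest ratio. The size of this ratio also depends on *SLC6A4* being a sum of 4 unigenes, while *TPH2* had 1. Within the dopamine pathway, *SLC6A3* over *TH* ranged the most, from 0.200 in M2 to 1.52 in F1, with 0.455 in F2 and 0.508 in M1. The ratios with *SLC6A2* and *SLC6A3* depend on where comp180407_c0_seq1 is counted, whose reads may be shared between these genes. They are given only for its assignment to *SLC6A3*.

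To set females against males, a limma model was fitted to log2(FPKM + 0.5) over every gene with at least 1 FPKM in at least 2 pools. Of the 9 genes 7 passed this filter, and 0 of the 7 had an adjusted p under 0.05, as did 0.0% of all genes tested, where the smallest adjusted p was 0.0538. At an unadjusted p under 0.05 limma also called 0 of the 7, against 6.78% of all genes as higher in males and 5.63% as higher in females. None of the 7 was 2-fold apart, against 4.15% of all genes in favour of males and 1.62% in favour of females. The mean was lower in females for 5 of the 7 genes, and the median difference was -0.09 against 0.02 over all genes. Without M1, or without F2, the mean was lower in females for only 3 of the 7. With 2 pools in each sex the smallest p of an exact permutation test is 0.333, so none was run.

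**Figure D3:**
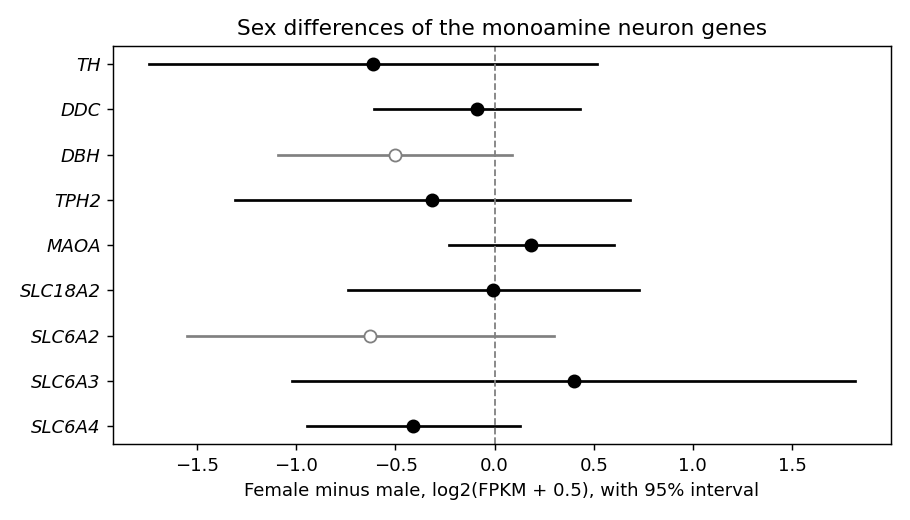
Female minus male difference in log2(FPKM + 0.5) with its 95% interval from limma for the 9 genes; filled points come from the main fit and open grey points, for *DBH* and *SLC6A2*, from the fit without a filter on low values. All 9 intervals include 0, and the widest, that of *SLC6A3*, runs from -1.02 to 1.82.

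Counted by pool, both male pools exceeded both female pools in 3 of the 9 genes (*DBH*, *SLC6A2* and *SLC6A4*), and the reverse held for 0 genes. Of the 7 genes past the filter it was 1, *SLC6A4*, against 20.9% of all genes tested, where the reverse held for 23.6%. With the shared transporter unigene counted to *SLC6A2*, 2 of the 9 remained (*DBH* and *SLC6A4*). For *DBH* and *SLC6A4* the difference between the sexes was larger than the wider of the ranges within a sex. For the other 7 genes it was smaller, so the pools of at least 1 sex differed from each other by more than the sexes did. In *SLC6A2* this held only narrowly and only for the male pools. Its difference was -0.63, against a range of 0.64 in males and 0.30 in females. No share over all genes is given for this count.

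At the level of unigenes 10 of the 15 passed the filter. Of these, 0 had an adjusted p under 0.05 and 0 an unadjusted p under 0.05 in limma, where 0.0% and 12.1% of all 51457 unigenes did. An amphibian protein was the best NR match of 10 of the 15 unigenes.

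M1 was the highest of the 4 pools for 8 of the 9 genes, all but *MAOA*, for which it was the lowest. Among the genes past the filter it was the highest for 6 of 7, against 19.0% of all genes tested. After scaling the pools by median ratios M1 was still the highest for 8 of the 9, and with the shared transporter unigene counted to *SLC6A2* it was the highest for 7. All of the genes were measured in the same 4 pools, so these are not separate observations. Of the neuron markers, 3 of the 9 tested were highest in M1 and the list summed to 1729 FPKM in F1 and 1334 in F2 against 1708 in M1 and 1644 in M2. The 7 *HOX* genes, markers of the hindbrain behind its most anterior segment, were highest in M1 as given above. Midbrain markers (8 of 8 found) summed to 64.5, 68.6, 83.9 and 79.1 FPKM in F1, F2, M1 and M2, and telencephalon markers (6 of 8 found, *DLX2* and *DLX5* not) to 57.4, 41.3, 32.88 and 49.97. M1 was the highest pool for 5 of the 8 midbrain genes and 0 of the 6 telencephalon genes. The telencephalon genes were not alike, since *EMX2* and *LHX2* were higher in both male pools and *EOMES* in both female pools. Markers of mast cells and thrombocytes, which store or take up amines, were found for 7 of 8 (*PF4* not). They were highest in M1 for 5 of the 7 found, and for 4 of the 5 tested, the base used above for the neuron markers and for all genes. They summed to 7.49 FPKM in F1 and 17.8 in F2 against 16.4 in M1 and 8.87 in M2, while *FCER1A*, a mast cell marker, was listed at 0 in both male pools. The part of the brain regions and of these cells in the pattern over pools was not tested.

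**Figure D4:**
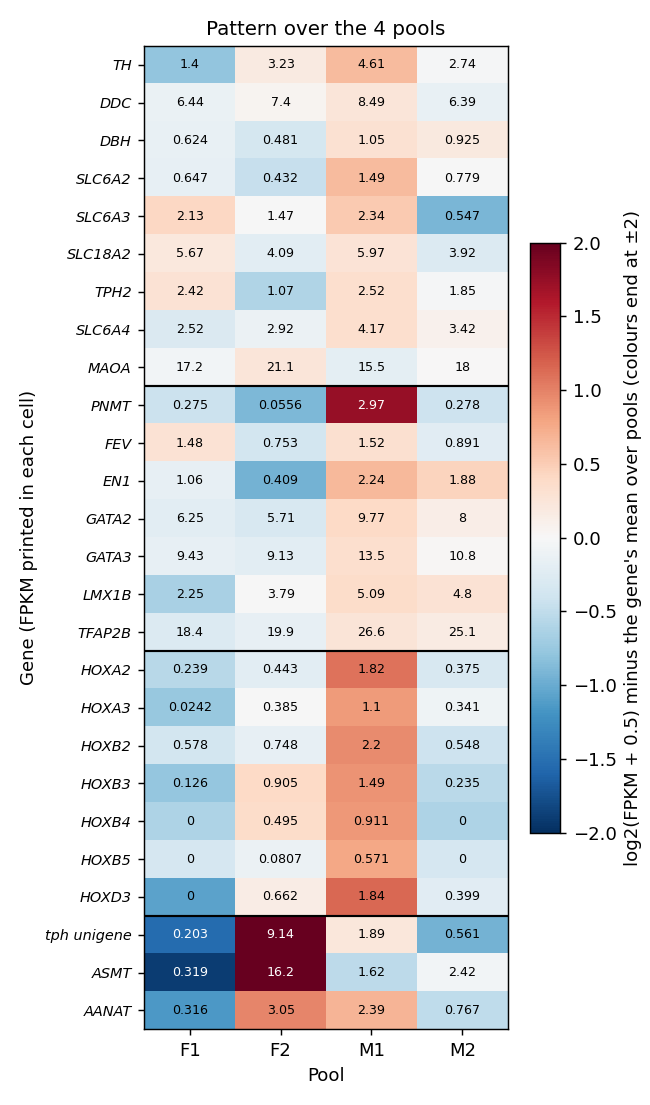
Heat map of log2(FPKM + 0.5) minus the mean of each gene over the 4 pools, with the FPKM printed in each cell; the blocks from top to bottom are the 9 monoamine neuron genes, 7 related genes chosen after their values were seen, the 7 *HOX* genes, and the longer tph unigene with genes of the pineal gland. The upper blocks are reddest in M1 for most genes, and the lowest block is reddest in F2.

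The wider pathway was described with 72 further genes, of which 61 were found and 50 tested. In limma 0 of the 50 had an adjusted p under 0.05. At an unadjusted p under 0.05, 4 were higher in males and 1 in females, and 2 were at least 2-fold higher in males and 0 in females. The count of 5 was 1 without M1, 1 without M2 and 9 without F2. Both male pools exceeded both female pools in 11, and the reverse held in 8. M1 was the highest pool for 11 of the 50, and the median difference was 0.07. These shares are to be read against those over all genes given above.

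Tetrahydrobiopterin is the cofactor of tyrosine and tryptophan hydroxylase. All 8 genes of its synthesis and recycling were tested, and 0 passed at an unadjusted p under 0.05. *DNAJC12*, a co-chaperone of these hydroxylases, had 45.3, 39.7, 46.9 and 44.5 FPKM in F1, F2, M1 and M2. *PTS*, a synthesis enzyme of the cofactor, had 32.4, 40.5, 27.8 and 34.5. *QDPR*, which recycles it, had 35.8, 27.3, 26.9 and 26.4, and *PCBD1*, a dehydratase of the same cycle, had 6.65, 8.69, 9.55 and 10.5. *DNAJC12*, *PTS* and *QDPR* were thus several times more abundant than *TH* or *TPH2* in every pool. The sexes overlapped in *DNAJC12* and *PTS*, while *QDPR* was higher in both female pools and *PCBD1* in both male pools.

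Among other enzymes of synthesis and breakdown, 9 of 10 were found and 7 tested. *ALDH1A1*, an aldehyde dehydrogenase that marks a part of the midbrain dopamine neurons in mammals and is also made by other brain cells, had 13.2 FPKM in F1 and 10.4 in F2 against 6.68 in M1 and 6.71 in M2. Both female pools lay above both male pools, with a difference of 0.77 (SE 0.17, limma unadjusted p = 0.00783, adjusted p = 0.185). Its main unigene, comp234032_c0_seq3 (best match *X. laevis*), carried 95.9% of the mean, and with it alone the difference was 0.68. The other unigenes of *ALDH1A1* best matched bird proteins and were listed at 0 in both male pools. *ALDH2* (42.8, 48.4, 48.1 and 32.6 FPKM in F1, F2, M1 and M2) and the aldose reductase *AKR1B1* (74.8, 83.0, 79.95 and 64.6 FPKM) overlapped between the sexes. *MAOB* was not found.

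*PNMT*, which makes adrenaline from noradrenaline, had 0.275 FPKM in F1 and 0.0556 in F2 against 2.97 in M1 and 0.278 in M2. It was high in M1 alone and did not pass the filter. It also marks adrenal chromaffin cells, and the markers of those cells and of sympathetic ganglia (4 of 6 found, *PHOX2A* and *HAND2* not) summed to 558.9 FPKM in F1 and 957.8 in F2 against 573.1 in M1 and 613.9 in M2. *CHGA* (230.0, 628.2, 272.2 and 290.2 FPKM in F1, F2, M1 and M2) and *CHGB* (280.4, 289.9, 262.9 and 295.3 FPKM) carried most of this sum, which also includes *PNMT*. *CHGA* was highest in F2, as were the pituitary markers. The sum therefore does not show how much of chromaffin cells a pool held. The part of such cells in the level of *PNMT* was not tested.

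Among the other monoamine transporters, 3 of 4 were found and 1 tested. *SLC29A4*, a low-affinity monoamine transporter of the plasma membrane, had 16.4, 14.9, 16.2 and 20.02 FPKM in F1, F2, M1 and M2, well above the high-affinity transporters. *SLC18A1*, the vesicle transporter of mammalian endocrine cells, had 1.65, 0.564, 0.730 and 0.481. *SLC22A3* lay between 0.360 and 0.531 in all pools.

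Dopamine receptors were found for 5 of the 8 symbols listed, and 0 of the 5 passed at an unadjusted p under 0.05. *DRD2*, the most abundant, had 8.89 FPKM in F1 and 8.80 in F2 against 9.62 in M1 and 8.47 in M2, almost the same in every pool. *DRD5* had 7.99, 5.62, 5.76 and 5.86, *DRD1* had 2.89, 2.24, 2.004 and 1.94, and *DRD1C*, a subtype kept in frogs, had 2.21, 2.62, 2.58 and 2.02. The 5 dopamine receptors thus varied less between pools than *TH* or *SLC6A3*, whose highest pools were 3.30 and 4.28 times the lowest.

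Adrenergic receptors were found for 7 of 9 symbols and tested for 6. At an unadjusted p under 0.05, 0 of them passed. *ADRA2C* (14.6, 10.1, 9.32 and 13.7 FPKM in F1, F2, M1 and M2) and *ADRA1A* (3.27, 2.52, 2.38 and 2.82 FPKM) overlapped between the sexes. *ADRA2A*, the autoreceptor of noradrenaline cells, had 11.2, 10.8, 10.5 and 9.38, and *ADRA1D* had 8.75, 9.92, 10.7 and 10.6. *ADRA2A* was higher in both female pools and *ADRA1D* in both male pools.

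Serotonin receptors were found for 13 of 15 symbols and tested for 10, of which 1 passed at an unadjusted p under 0.05. *HTR3A*, a subunit of the serotonin-gated ion channel, had 4.02 FPKM in F1 and 5.58 in F2 against 16.9 in M1 and 39.5 in M2. The difference was -2.33 (SE 0.44, limma unadjusted p = 0.00397, adjusted p = 0.122). Of its 7 unigenes comp220507_c3_seq1 (2039 bp, best match a *X. laevis* precursor of the same subunit) carried 89.1% of the mean, with 3.77, 3.01, 13.5 and 38.5 FPKM, and the other 6 unigenes made up the rest, a larger share in F2. Among those 6, comp101276_c0_seq2 had 5-hydroxytryptamine receptor 3C of *X. tropicalis* as its best match and carried 1.26% of the mean. Another subunit, *HTR3B*, lay at or under 0.387 FPKM in every pool.

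Several G protein-coupled serotonin receptors were more even. *HTR1B*, a release-limiting receptor, had 16.9, 17.9, 19.4 and 20.9 FPKM in F1, F2, M1 and M2, and *HTR1A*, the autoreceptor of serotonin cells, had 13.5, 12.7, 11.1 and 13.2. *HTR7* had 10.7, 8.63, 7.04 and 11.7. Both male pools exceeded both female pools in *HTR1B*, and, among those named after their values were seen, in *HTR4* (4.57, 4.95, 5.86 and 7.61 FPKM). Of the 10 serotonin receptors tested this order held in 3, *HTR3A* among them, and the reverse order held in 2. *HTR6* ranged from 3.91 in M1 to 8.99 in M2.

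Transcription factors that specify monoamine neurons were found for 16 of 18 symbols and tested for 13. At an unadjusted p under 0.05 in limma, 3 were higher in males and 0 in females, against 6.78% and 5.63% of all genes tested. Both male pools exceeded both female pools in 5 of the 13, against 20.9% of all genes. M1 was the highest pool in 6, against 19.0%, and the median difference was -0.09, against 0.02. No unigene carried the symbol *PHOX2A*, a factor of noradrenaline neurons.

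The factors with an unadjusted p under 0.05 were *TFAP2B*, *GATA2* and *EN1*. *TFAP2B*, which acts in noradrenaline neurons, had 18.4, 19.9, 26.6 and 25.1 FPKM in F1, F2, M1 and M2 and differed by -0.42 (limma adjusted p = 0.262). *GATA2*, a factor of serotonin neurons and of many inhibitory midbrain neurons, had 6.25, 5.71, 9.77 and 7.999 FPKM and differed by -0.53 (limma adjusted p = 0.343). *EN1*, which patterns the midbrain and first hindbrain segment, had 1.06, 0.410, 2.24 and 1.88 FPKM and differed by -1.10 (limma adjusted p = 0.339). In each of them both male pools exceeded both female pools, an order that picking genes by a low p nearly fixes with 2 pools per sex.

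*LMX1B*, a factor of serotonin and dopamine neurons named after its values were seen, had 2.25 FPKM in F1 and 3.79 in F2 against 5.09 in M1 and 4.80 in M2, with both male pools above both female pools. The sexes overlapped in *FEV* and *NR4A2*. *FEV*, which is confined to serotonin neurons in the mammalian brain, had 1.48 FPKM in F1 and 0.753 in F2 against 1.52 in M1 and 0.891 in M2, with F1 and M1 high and F2 low as in *TPH2*. *NR4A2*, needed for midbrain dopamine neurons and also made elsewhere, had 3.34, 4.62, 3.55 and 3.06 FPKM. *INSM1* (9.85, 12.6, 11.7 and 10.9 FPKM), *GATA3* (9.43, 9.13, 13.5 and 10.8 FPKM) and *EN2* (11.8, 9.95, 10.3 and 8.34 FPKM) were the other abundant factors. Of these only *GATA3* had both male pools above both female pools.

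**Figure D5:**
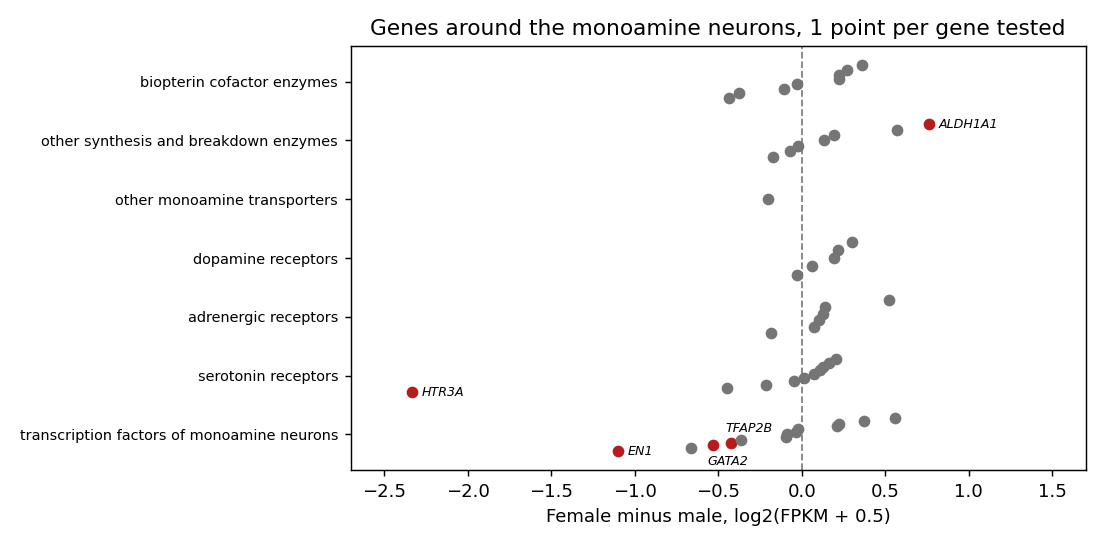
Female minus male difference in log2(FPKM + 0.5) for the 50 tested genes of the wider pathway by list, with 1 point per gene; red points have an unadjusted limma p under 0.05 and are named, and 0 of the genes had an adjusted p under 0.05. Most receptors lie near 0, and 3 of the 5 red points are transcription factors to the left, that is higher in males.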

How the data were processed

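The deposited table holds FPKM values computed by the authors, with no read counts. The study describes read filtering with NGS QC Toolkit v2.3.3, assembly of all reads with Trinity and TGICL, alignment with Bowtie2 and BLASTx annotation. The labels list other tools without versions (edgeR, Salmon, FastQC and cutadapt). Low FPKM values of a unigene were near whole multiples of a step. Whether this step was alike in all pools was not settled, and unigenes of equal length had different steps, so reads were not recovered.

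Of 197684 unigenes 35944 had a Swiss-Prot gene symbol, and 4901 of these matched chicken or turkey and were dropped. FPKM was summed per gene. Genes with at least 1 FPKM in at least 2 pools (11975) entered a linear model of log2(FPKM + 0.5) on sex alone, with a mean-variance trend, in limma 3.58.1 under R 4.3.3. Benjamini-Hochberg adjustment ran over all genes (2 residual and 2.59 prior degrees of freedom). The same fit was made over 51457 unigenes. DEGseq, the test of the study, needs reads and was not run.

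The members and lists were chosen with earlier results of these data known. Named were all members, up to 4 genes per wider list with the highest mean, any with an unadjusted p under 0.05, and *FEV*, *PHOX2A* and *NR4A2*. *PNMT*, *GATA3*, *LMX1B*, *HTR3B*, *HTR4*, *HTR6*, *GNAT2* and the tph, *MAO*, *AANAT* and *ASMT* values were added as markers or after their values were seen. Results for a few genes of the wider and marker lists are not reported here, and the list counts leave them out. Alternatives were other pseudocounts, filters and scalings, a replicate block, each pool left out, other choices of unigenes, and no trend. Samples were grouped by the sex in their labels. Same-numbered pools deviated in opposite ways (correlation over genes -0.254), so the numbers do not pair them. Tables were made with pandas 2.3.3 and numpy 2.4.6 and plots with matplotlib 3.10.9, under Python 3.11.15.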

Additional observations from a re-analysis of the deposited data

How the results depend on the processing

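With 2 pools per sex, only large and even differences could pass. No member, member unigene or gene counted in the wider lists had an adjusted p under 0.05 in limma in any of the settings in which it could be fitted. The smallest adjusted p of a member was 0.322, for *TH* with the pools paired crosswise (F1 with M2, F2 with M1), a pairing added after seeing the data. The replicate block called 0 members and 0 genes of the wider lists, and 5 genes of the wider lists at an unadjusted p under 0.05.

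Leaving out a pool moved *TH* between -1.10 without F2 and -0.13 without F1, *SLC6A4* between -0.54 without M2 and -0.28 without M1, and *MAOA* between 0.04 without F2 and 0.33 without F1. It turned the sign of other differences. *DDC* ranged from -0.28 without M2 to 0.10 without M1, with 0.0053 without F1. *SLC18A2* ranged from -0.28 without M2 to 0.27 without M1, with 0.21 without F2. *TPH2* ranged from -0.76 without F1 to 0.14 without F2, and *SLC6A3* from -0.32 without M2 to 1.12 without M1. Without M1 the mean was lower in females for 3 of the 7 genes tested, and likewise 3 without F2. At an unadjusted p under 0.05 limma called 1 member in 3 settings: *SLC6A3* without M1 (adjusted p = 0.614), and *TH* without F2 (adjusted p = 0.329) and with the crosswise pairing. With a pool left out, the lone pool of its sex is assumed to vary like the other sex. A mean of at least 5 FPKM left 2 members and amphibian matches alone left 5.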
